A study of Mus musculus with 28 samples.

Results

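The genes described here are 40 messenger RNAs of the NRF2 and glutathione defence of the liver, taken by their symbols from 3 deposited tables of 20416 genes each. All 40 had a row in every table. They comprise NRF2 and its sensor (2 genes), glutathione synthesis and recycling (5), thioredoxin, quinone, haem and NADPH enzymes (11), peroxide and superoxide enzymes (7) and glutathione S-transferases (15). Liver RNA of male C57BL/6 mice was sequenced in 28 samples from 2 mouse models of non-alcoholic steatohepatitis (NASH), a fatty liver disease with inflammation and scarring. In the diet model, 4 samples came from mice fed a methionine- and choline-deficient diet (MCD) and 4 from mice fed the matched low-fat control diet (CD). The sample titles and the design text give 4 weeks of feeding, whereas the label for duration reads 5 weeks, and no label tells how old these mice were. In the STAM model, mice received streptozotocin, which destroys the beta cells of the pancreas, at postnatal day 2 and a high-fat diet from week 4. Livers of STAM mice and of control-diet mice were taken at 4 weeks or at 10 weeks of age, with 5 samples in each of these 4 groups. Since the diet starts at week 4, how long the 4-week STAM mice had eaten it is not given, and whether the controls received a vehicle injection is not given either. The labels name no genetic change in any group. STAM mice therefore differ from controls by a toxin and a diet together, and MCD mice lack 2 nutrients, of which methionine is a source of the cysteine in glutathione. Nothing in the labels states that every sample is a mouse of its own, and the p-values thus reflect variation among samples that could be technical.

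NRF2, encoded by Nfe2l2, is a transcription factor that the adaptor KEAP1 marks for degradation in unstressed cells. Oxidants and electrophiles modify cysteines of KEAP1, NRF2 accumulates, pairs with small MAF proteins and binds antioxidant response elements near genes for glutathione synthesis, quinone reduction, thioredoxin recycling and NADPH supply. Glutathione is a tripeptide of glutamate, cysteine and glycine. The liver makes much of it, uses it to reduce peroxides, and joins it to foreign compounds through the glutathione S-transferases, which hepatocytes hold in large amounts. Much of NRF2's control acts on the protein, which RNA levels do not show.

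To show the element through which NRF2 acts, the promoters of the members were searched for its core, TGACNNNGC, on both strands, from 250 bases before to 50 bases after the start of transcription in RefSeq (GRCm38.p6). Of the 40 members, 34 had a promoter in that table and 10 of them held the core (29.4%), against 14.0% of 27025 genes in the same window. Slc7a11, Nqo1, Gss, Cbr3, Gpx2, Gpx3 and Gpx4 had a promoter there without the core. Srxn1 held it after the start of transcription, and Gclc and Hmox1 had no promoter in the table. Here 5 matches that lie upstream of the start are shown, in Nfe2l2 itself, in Gclm and Prdx1 (synthesis and peroxide reduction), and in Mgst1 and Gsta3, the transferases of highest level in the alpha and microsomal classes. Capitals mark the core or, where the match is on the opposite strand, its reverse complement.
Nfe2l2: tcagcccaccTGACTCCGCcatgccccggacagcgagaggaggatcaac
Gclm: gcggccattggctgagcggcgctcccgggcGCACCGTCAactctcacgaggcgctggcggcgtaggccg
Prdx1: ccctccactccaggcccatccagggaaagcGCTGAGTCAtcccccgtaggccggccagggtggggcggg
Gsta3: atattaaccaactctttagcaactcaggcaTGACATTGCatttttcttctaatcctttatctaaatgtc
Mgst1: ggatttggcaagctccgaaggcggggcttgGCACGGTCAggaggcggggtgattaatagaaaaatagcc
The first is chr2:75704865-75704913 on the minus strand, and the others are chr3:122245393-122245461, chr4:116685436-116685504, chr1:21240434-21240502 and chr6:138140441-138140509 on the plus strand. The match in Prdx1 also contains TGACTCA, the AP-1 motif, on the strand opposite to the gene. These are matches of letters and not measured binding, and elements farther from the start were not searched.

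The deposited values were log2 CPM, that is, read counts relative to the effective size of each library, scaled by the authors within each table. Recovered reads were 16.2 to 25.9 M per library, and 3 reads in 1 library equal at most 0.200 CPM. Fold changes are differences of log2 CPM, tested with limma over all genes of a table, and a gene is said to rise or fall at a Benjamini-Hochberg adjusted p under 0.05. All 40 members passed the filter on low values, and 37 lay above the median level in each table. Albumin, the main product of hepatocytes, took 3.08% to 11.8% of reads. In 4-week control replicate 1, 482 of 10208 genes stood over 2-fold from the other 4 controls. CD replicate 3 was the highest of the 4 CD libraries in 23 of 40 members, and 4-week control replicate 4 was the highest of 5 in 20 of 40. Results that these libraries decide are given with and without them.

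In MCD livers 28 of 40 members were called, where 42.7% of all 15312 genes tested were. Of these, 13 rose and 15 fell, against 22.6% and 20.1% of all genes. In 4-week STAM livers 7 members were called, where 9.8% of all genes were. All 7 rose and none fell, against 6.52% and 3.27%. The absence of falls rests on limma's adjusted p, since 3 members were lower at an unadjusted p under 0.05 (Sod1, Gstt1 and Gstt3). At that age the authors' deposited table holds an adjusted p under 0.05 for 10 members on the higher and 1 on the lower side, Gstt3. In 10-week STAM livers 26 members were called, where 47.8% of all genes were. Of these, 9 rose and 17 fell, against 25.3% and 22.5%. The median change over the 40 members was -0.01 in MCD, 0.17 at 4 weeks and -0.18 at 10 weeks, and over all genes tested 0.07, 0.01 and 0.05. Values of the groups did not overlap for 12 higher and 15 lower members in MCD (40.1% of all genes), for 9 and 1 at 4 weeks (10.1%) and for 9 and 11 at 10 weeks (33.1%). With the deposited scaling the members' counts, as shares of 40, lay above those of all genes for both directions in MCD, for rises at 4 weeks and for falls at 10 weeks, and near them for rises at 10 weeks. The excess of falls is not seen with quantile normalization. With total-read scaling the 19 of 40 members that rose in MCD were near the 49.5% of all genes. Falls in MCD and at 10 weeks stayed above those of all genes under that scaling, as given in the next paragraph. The members were chosen with earlier results of these data known, and all genes are not matched to them in level. In the top decile of level lay 25 members in the MCD table, 25 at 4 weeks and 19 at 10 weeks.

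The balance of rises and falls depends on how libraries are scaled. With plain total-read scaling the median of all genes moved up by 0.42 in MCD and by 0.29 at 10 weeks, and 86.1% and 88.0% of all calls were rises, against 52.9% and 53.0% with the deposited scaling. At 4 weeks the shift was 0.08, and 83.7% of calls were rises against 66.6%. The members then had 19 rises and 8 falls in MCD, 10 and 0 at 4 weeks, and 17 and 7 at 10 weeks. Of all genes tested, 49.5% rose and 7.98% fell in MCD under that scaling, and 45.8% and 6.22% at 10 weeks. With quantile normalization the members had 16 rises and 7 falls in MCD, where 20.3% and 20.5% of all genes rose and fell. They had 9 and 0 at 4 weeks, against 5.59% and 3.75%, and 12 and 9 at 10 weeks, against 18.8% and 22.4%. Under quantile normalization the share of members that fell was thus below that of all genes in MCD and level with it at 10 weeks. Members called in the same direction under all 3 scalings numbered 12 higher and 7 lower in MCD, 7 higher at 4 weeks, and 9 higher and 7 lower at 10 weeks. The shares of all genes called under all 3 are not given here, so whether these counts exceed them is not known. The 7 falls of MCD were Cat, Sod1, Gsta3, Gstm6, Gstt1, Gstt3 and Mgst1, and those of 10-week STAM livers were Sod1, Gsta2, Gsta3, Gsta4, Gstm6, Gstt1 and Gstt3.

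**Figure D1:**
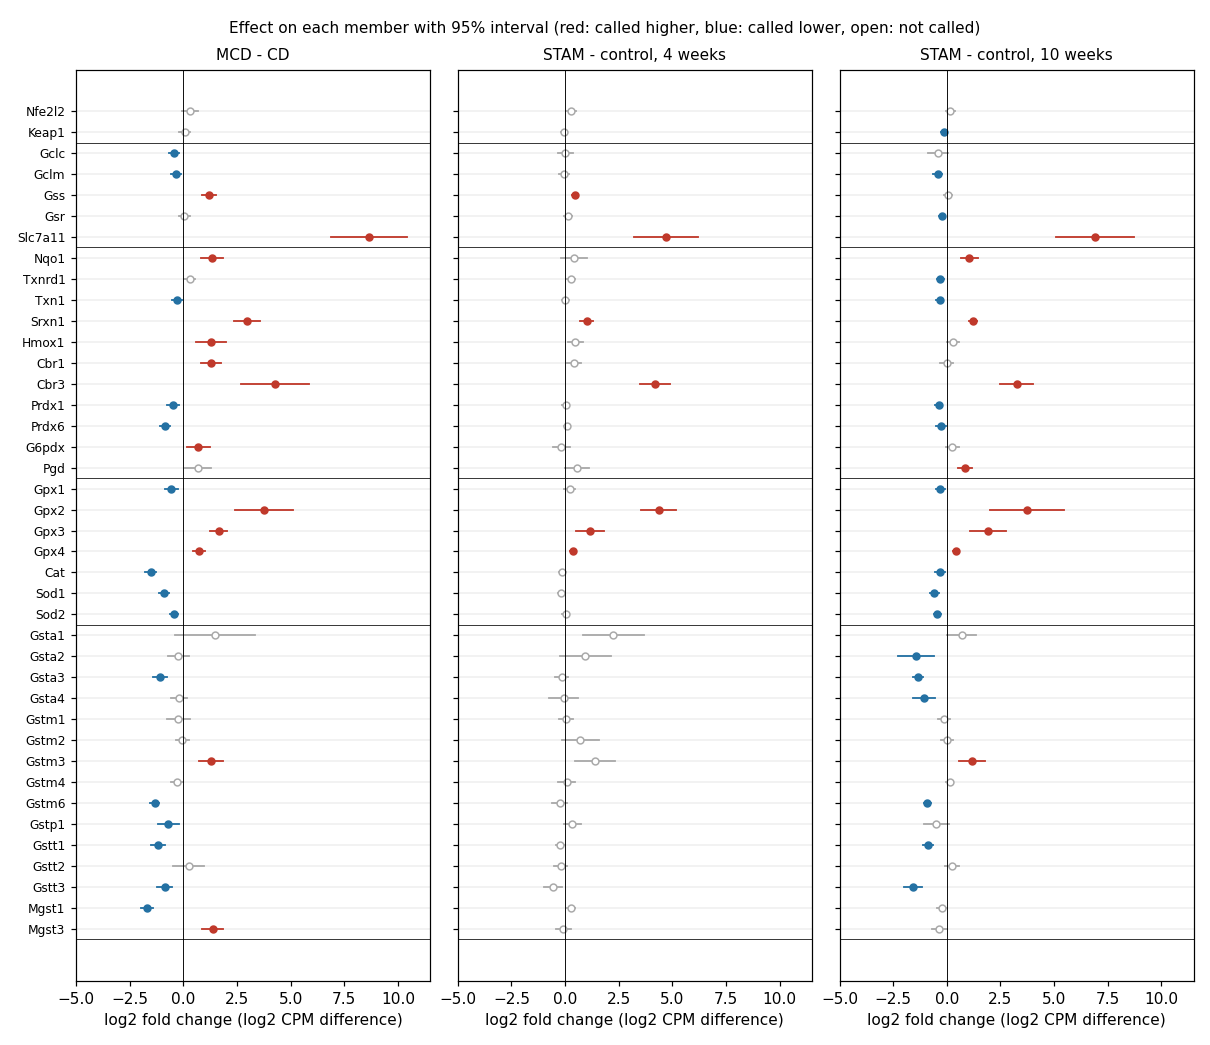
Log2 fold change of each of the 40 members (x axis, difference of log2 CPM with the 95% interval of limma) in MCD against CD and in STAM against control at 4 and 10 weeks, with filled points for members called. Slc7a11, Cbr3 and Gpx2 lie farthest to the right in all 3 panels, and falls of 10-week STAM livers are mostly small. Under total-read scaling or quantile normalization the sign flips for Gclc, Gclm, Txn1, Prdx1, Gpx1, Gsta2, Gsta4, Gstm1, Gstm2 and Gstm4 in MCD, for Keap1, Gclm and Gsta4 at 4 weeks, and for Keap1, Gsr, Cbr1, Prdx6, Gpx1, Cat, Gstm1 and Mgst1 at 10 weeks.

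In all 3 comparisons 6 members rose: the cystine transporter Slc7a11, sulfiredoxin Srxn1, carbonyl reductase Cbr3, and the glutathione peroxidases Gpx2, Gpx3 and Gpx4. Of 14848 genes tested in all 3, 3.1% rose in each. In MCD and 10-week STAM livers alike 8 members rose, the same 6 with Nqo1 and Gstm3 (12.4% of genes). Those that fell in both were 12, namely Gclm, Txn1, Prdx1, Prdx6, Gpx1, Cat, Sod1, Sod2, Gsta3, Gstm6, Gstt1 and Gstt3 (10.1% of genes). Of these 12, Gclm, Txn1, Prdx1 and Gpx1 change sign under another scaling in MCD, and Prdx6, Gpx1 and Cat at 10 weeks. Only Sod1, Gsta3, Gstm6, Gstt1 and Gstt3 were called lower in both comparisons under all 3 scalings. These 2 comparisons share no library. The 6 members that limma called in none of the 3 with the deposited scaling were Nfe2l2, Gsta1, Gstm1, Gstm2, Gstm4 and Gstt2. The share of all genes called in none is not given here.

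Nfe2l2 (NM_010902, chromosome 2, 75675519 to 75704641 on mm10, as all positions here) encodes NRF2 itself. It was at 141, 124, 112 and 85.3 CPM in CD and at 189.8, 123, 148 and 113 CPM in MCD. Controls of 4 weeks had 122, 105, 128, 103 and 106 CPM, and STAM livers of that age 159, 109, 150.4, 151 and 125 CPM. At 10 weeks it was at 90.9, 113, 107, 116 and 85.7 CPM in controls and 102, 121, 106, 125 and 119 CPM in STAM. The groups overlapped in each comparison, and in each the highest value was that of a diseased liver. The differences were 0.31 (SE 0.18, adjusted p = 0.191), 0.29 (SE 0.11, adjusted p = 0.119) and 0.16 (SE 0.09, adjusted p = 0.170). With total-read scaling, which moves all genes up, Nfe2l2 passed in each comparison (0.73, 0.37 and 0.45), and with quantile normalization in MCD (0.54) and at 10 weeks (0.36). Without 4-week STAM replicate 2 it also passed at 4 weeks (0.37, adjusted p = 0.0313).

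Keap1 (NM_016679, chromosome 9, 21229730 to 21239332), the sensor that holds NRF2 down, had 44.3, 41.7, 38.1 and 35.3 CPM in CD and 38.3, 37.7, 38.8 and 51.9 CPM in MCD, where replicate 4 alone was above the CD range. It had at 4 weeks 57.2, 57.9, 66.7, 58.2 and 55.4 CPM in controls and 55.6, 59.7, 53.1, 60.5 and 55.5 CPM in STAM, and at 10 weeks 62.05, 65.5, 60.2, 56.6 and 65.4 CPM and 57.1, 54.8, 55.7, 56.7 and 54.6 CPM. These are narrow ranges that overlap in every comparison. The differences were 0.06 (SE 0.12, adjusted p = 0.729) and -0.05 (SE 0.07, adjusted p = 0.713), and with total-read scaling that of MCD passed (0.48). At 10 weeks Keap1 fell by 0.15 (SE 0.06, adjusted p = 0.0450), a call that turned to 0.14 with total-read scaling and was lost when any 1 library other than control replicate 4 was left out (-0.16 to -0.13).

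Of the genes for glutathione synthesis and recycling, Slc7a11 and Gss rose in MCD and 4-week STAM livers, and Slc7a11 alone rose at 10 weeks. The 2 subunits of glutamate-cysteine ligase, which makes the first bond of glutathione, did not rise in any comparison with the deposited scaling. The plot of NRF2 targets by library shows Slc7a11, both ligase subunits and 6 other members.

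Slc7a11 (NM_011990, chromosome 3, 50364936 to 50443613) encodes the cystine importer xCT, which brings the sulfur amino acid of glutathione into the cell. CD livers had 3, 1, 1 and 0 reads of it, 4-week controls 1, 2, 0, 1 and 0 reads, and 10-week controls 0, 1, 0, 1 and 2 reads. MCD livers had 320, 1142, 236 and 1055 reads, which is 12.6, 45.99, 10.5 and 33.2 CPM. STAM livers had 0.654, 0.633, 1.17, 1.42 and 1.84 CPM at 4 weeks and 3.56, 2.88, 0.898, 15.2 and 10.3 CPM at 10 weeks. Every diseased liver was above every control of its table, and in the 10-week STAM livers replicates 4 and 5 were the highest and replicate 3 the lowest. The transcript was nearly absent from control livers. The ratio of summed reads per effective library, with its 95% counting interval, was 379.9 (163 to 1171) in MCD, 25.2 (9.59 to 94.03) at 4 weeks and 158 (61.3 to 580.3) at 10 weeks. The fitted log2 changes of 8.65 (SE 0.79, adjusted p = 2.55e-05), 4.69 (SE 0.68, adjusted p = 0.00106) and 6.91 (SE 0.83, adjusted p = 4.16e-05) depend on the prior count, since some controls had 0 reads. Per length it stayed the lowest of the 40 members in 10-week STAM livers, at 0.7096 ± 0.646 CPM per kb (SD, n = 5).

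Gclc (NM_010295, chromosome 9, 77754535 to 77794489), the catalytic subunit of glutamate-cysteine ligase, had 862, 901, 1168 and 958 CPM in CD and 711, 704, 706 and 738 CPM in MCD. All 4 MCD livers were below all 4 CD livers. It fell by 0.43 (SE 0.11, adjusted p = 0.00763), but was 0.28 with quantile normalization and -0.01 with total-read scaling, neither called. At 4 weeks Gclc had 647, 494, 589.8, 664 and 501 CPM in controls and 514, 401, 587, 795 and 672 CPM in STAM, and the ranges overlapped (0.01, SE 0.17, adjusted p = 0.986). At 10 weeks the values were 261, 684, 497, 374 and 441 CPM in controls and 358, 282, 280.4, 332 and 353 CPM in STAM. Control replicate 1 was the lowest of all 10, and the difference was -0.43 (SE 0.21, adjusted p = 0.116). Without that library Gclc fell by 0.61 (adjusted p = 0.00634).

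Gclm (NM_008129, chromosome 3, 122245557 to 122267215), the modifier subunit, had 168, 183, 225 and 217 CPM in CD and 149, 159, 157 and 156 CPM in MCD. The groups did not overlap, and it fell by 0.34 (SE 0.11, adjusted p = 0.0196), a sign that turned to 0.08 with total-read scaling and a size of -0.06 with quantile normalization, not called. The call was lost without CD replicate 3 (-0.28) or CD replicate 4 (-0.30). Controls of 4 weeks had 221, 149, 185, 195 and 183 CPM and STAM livers of that age 169, 173, 184, 207 and 164 CPM, with overlap and a difference of -0.05 (SE 0.10, adjusted p = 0.819). At 10 weeks controls had 166, 233, 215, 207 and 186 CPM and STAM livers 176, 145, 144, 134 and 155 CPM, where STAM replicate 1 lay inside the control range and the other 4 below it. It fell by 0.42 (SE 0.10, adjusted p = 0.00356), and missed the threshold under both other scalings (-0.12 and -0.20).

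Gss (NM_008180, chromosome 2, 155563181 to 155592810), which encodes glutathione synthetase and adds glycine in the last step, had 43.1, 57.4, 64.6 and 56.02 CPM in CD and 103, 139.6, 112 and 153 CPM in MCD. Here every MCD liver was above every CD liver, and Gss rose by 1.19 (SE 0.15, adjusted p = 4.89e-05). Controls at 4 weeks had 85.2, 78.7, 81.2, 85.5 and 79.9 CPM and STAM livers 106, 110.4, 108, 125 and 111 CPM, again without overlap, with a rise of 0.45 (SE 0.06, adjusted p = 0.000884). At 10 weeks the STAM livers, from 67.2 to 82.1 CPM, lay within or next to the control range of 63.2 to 81.9 CPM (0.04, adjusted p = 0.719), and Gss passed there with total-read scaling (0.33). Gsr, glutathione reductase, which regenerates glutathione with NADPH, differed by 0.03 in MCD and 0.13 at 4 weeks, neither called, and passed in MCD with total-read scaling (0.46). At 10 weeks it fell by 0.23 (SE 0.07, adjusted p = 0.0149), a change that turned to 0.06 with total-read scaling and was not called with quantile normalization (-0.09).

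**Figure D2:**
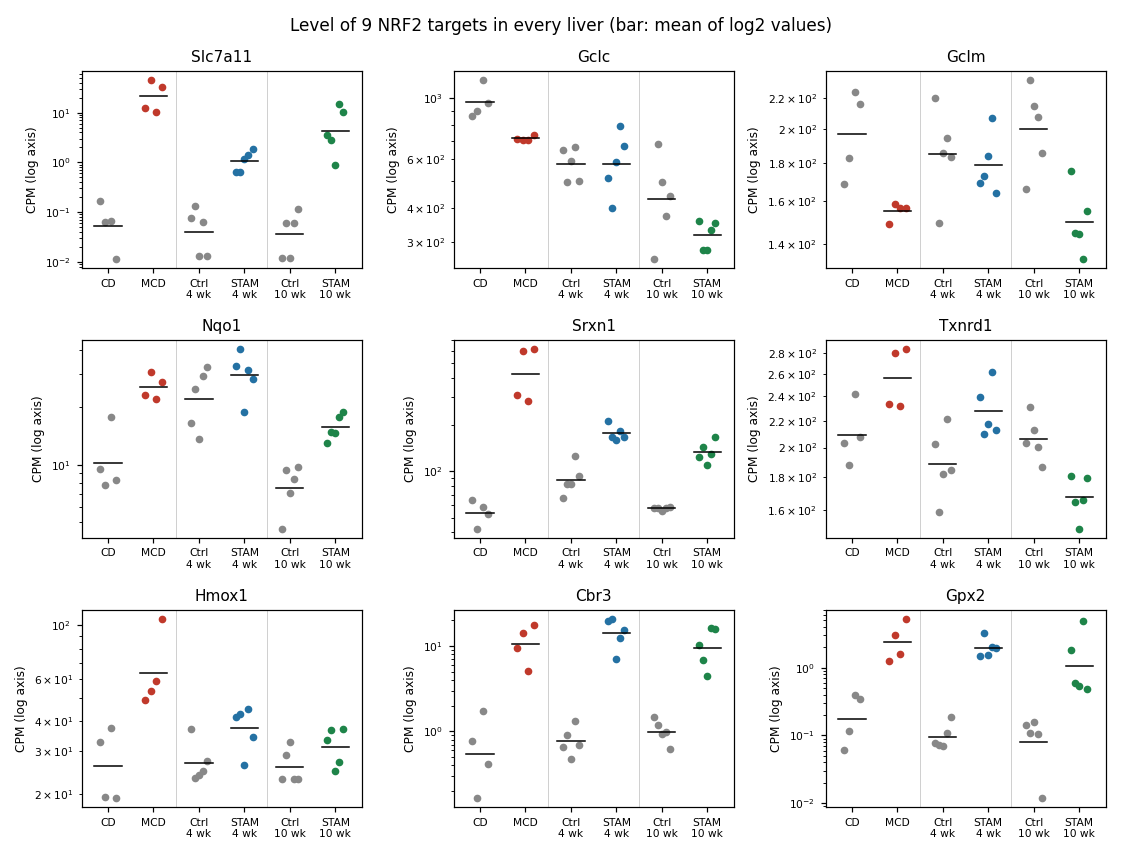
Level of 9 NRF2 targets in each library (y axis, CPM on a log axis, 1 point per library, bar at the mean of log2 values) in the 6 groups. A point near 0.01 CPM for Slc7a11 or Gpx2 is a library with 0 reads, shown at the deposited prior. The diseased livers stand wholly above their controls for Slc7a11, Srxn1, Cbr3 and Gpx2 in every pair of groups, while Gclc and Gclm lie below controls in MCD, signs that flip under another scaling, and overlap with controls in STAM.

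Among the thioredoxin, quinone, haem and NADPH enzymes, 6 of 11 rose and 3 fell in MCD, 2 rose at 4 weeks, and 4 rose and 4 fell at 10 weeks. Of all genes, 22.6% rose and 20.1% fell in MCD, 6.52% and 3.27% at 4 weeks, and 25.3% and 22.5% at 10 weeks. Srxn1 and Cbr3 rose in all 3. The peroxiredoxins Prdx1 and Prdx6 and thioredoxin itself were on the falling side in MCD and at 10 weeks with the deposited scaling, and changed sign with another scaling for Prdx1 and Txn1 in MCD and for Prdx6 at 10 weeks.

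Nqo1 (NM_008706, chromosome 8, 107388225 to 107403205), a quinone reductase and the usual indicator gene of NRF2, had 9.46, 7.82, 17.7 and 8.29 CPM in CD and 23.3, 30.7, 21.99 and 27.2 CPM in MCD. All 4 MCD livers were above the CD range, of which replicate 3 was the top. It rose by 1.33 (SE 0.23, adjusted p = 0.000831). At 4 weeks controls ranged widely, with 16.5, 25.04, 13.7, 29.1 and 32.5 CPM, and STAM livers had 32.8, 40.3, 18.9, 31.5 and 28.2 CPM. These overlapped, and the difference of 0.41 (SE 0.27, adjusted p = 0.410) had an interval of -0.20 to 1.02. At 10 weeks controls had 4.63, 9.34, 7.14, 8.41 and 9.76 CPM and STAM livers 13.00, 14.8, 14.7, 17.8 and 18.8 CPM. There all 5 STAM livers were above all 5 controls, and Nqo1 rose by 1.04 (SE 0.18, adjusted p = 0.000567). The 4-week controls thus reached the levels of MCD and 10-week STAM livers, in tables that were scaled separately.

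Srxn1 (NM_029688, chromosome 2, 152105524 to 152111376) encodes sulfiredoxin, which repairs over-oxidised peroxiredoxins. It had 64.7, 42.4, 58.5 and 52.3 CPM in CD and 311, 595, 282 and 614 CPM in MCD, where replicates 2 and 4 were well above replicates 1 and 3. It rose by 2.98 (SE 0.27, adjusted p = 2.6e-05). The 4-week controls had 67.1, 81.9, 82.03, 125 and 92.2 CPM and STAM livers 210.1, 166, 158, 183 and 166 CPM, and it rose by 1.001 (SE 0.14, adjusted p = 0.00109). The 10-week controls had 58.02, 57.8, 54.8, 57.5 and 58.7 CPM, a very tight range, and STAM livers 123, 144, 109.5, 129 and 167 CPM. It rose by 1.21 (SE 0.09, adjusted p = 1.03e-06), and the groups did not overlap in any of the 3 comparisons.

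Cbr3 (NM_173047, chromosome 16, 93683219 to 93690991), a carbonyl reductase, was at 0.773, 0.166, 1.72 and 0.412 CPM in CD and at 9.37, 14.3, 5.08 and 17.7 CPM in MCD. It rose from 0.658, 0.907, 0.472, 1.33 and 0.699 CPM in 4-week controls to 19.3, 20.8, 7.02, 12.5 and 15.2 CPM in STAM livers. At 10 weeks controls had 1.46, 1.18, 0.921, 0.997 and 0.621 CPM and STAM livers 10.2, 6.83, 4.39, 15.99 and 15.9 CPM. Control livers of the 3 tables lay between 0.166 and 1.72 CPM and diseased livers between 4.39 and 20.8 CPM. The rises were 4.25 (SE 0.69, adjusted p = 0.00126), 4.19 (SE 0.32, adjusted p = 1.42e-05) and 3.25 (SE 0.35, adjusted p = 1.9e-05). Its neighbour Cbr1, on the same chromosome 16, is a carbonyl reductase of broad tissue range. Cbr1 rose by 1.29 (SE 0.22, adjusted p = 0.000882) in MCD and differed by 0.41 (adjusted p = 0.109) and -0.01 (adjusted p = 0.952) in STAM livers at 4 and 10 weeks.

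Txnrd1 (NM_001042523, chromosome 10, 82833951 to 82897724), thioredoxin reductase of the cytosol, had 203, 188, 242 and 208 CPM in CD and 234, 279.9, 232 and 284 CPM in MCD, with CD replicate 3 inside the MCD range. The difference of 0.29 (SE 0.11, adjusted p = 0.0522) missed the threshold and passed it without CD replicate 3 (0.36, adjusted p = 0.0296), MCD replicate 1 (0.33) or MCD replicate 3 (0.34). It rose with total-read scaling (0.71, adjusted p = 0.000435) and quantile normalization (0.67, adjusted p = 0.000811). The 4-week controls had 203, 159, 182, 221 and 185 CPM and STAM livers 239, 210.1, 218, 262 and 213 CPM, with overlap (0.27, SE 0.10, adjusted p = 0.0976), and Txnrd1 passed there under both of these scalings (0.35 and 0.35). The 10-week controls had 203, 231, 213, 200.5 and 187 CPM and STAM livers 181, 164, 149.8, 166 and 179.5 CPM, all below the controls. It fell by 0.30 (SE 0.08, adjusted p = 0.00541), and missed the threshold with total-read scaling (-0.01) and quantile normalization (-0.07).

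Hmox1 (NM_010442, chromosome 8, 75093618 to 75100593), haem oxygenase, breaks haem down to biliverdin and is controlled by NRF2 and by the repressor BACH1. It had 32.9, 19.4, 37.5 and 19.2 CPM in CD and 48.8, 53.2, 58.7 and 106 CPM in MCD, where replicate 4 was the highest. All MCD livers were above all CD livers, and it rose by 1.29 (SE 0.30, adjusted p = 0.00794). At 4 weeks controls had 37.2, 23.1, 23.8, 24.8 and 27.3 CPM and STAM livers 41.7, 42.9, 26.3, 44.7 and 34.4 CPM. The ranges overlapped through control replicate 1, the highest control, and STAM replicate 3, the lowest STAM liver, and the difference was 0.48 (SE 0.16, adjusted p = 0.0933). It passed without that control (0.60, adjusted p = 0.0179) or without that STAM library (0.60, adjusted p = 0.0205). At 10 weeks controls had 22.9, 28.9, 32.8, 23.00 and 22.96 CPM and STAM livers 33.4, 36.6, 24.9, 26.98 and 36.9 CPM (0.28, SE 0.13, adjusted p = 0.103). These overlapped too, and the difference passed with total-read scaling (0.57) and without control replicate 3 (0.37) or STAM replicate 3 (0.36).

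Thioredoxin (Txn1) fell by 0.30 in MCD (adjusted p = 0.0286), where total-read scaling gave 0.12 and quantile normalization -0.08, neither called. At 10 weeks it fell by 0.33 (adjusted p = 0.00142), with -0.04 and -0.15 under these scalings, neither called. Its MCD call disappeared on leaving out any of 5 libraries, such as CD replicate 3 (-0.22). Prdx1, an abundant peroxiredoxin, fell by 0.48 in MCD (adjusted p = 0.00716), with -0.06 and 0.23 under the same scalings, and by 0.37 at 10 weeks (adjusted p = 0.00161), with -0.08 and -0.08. None of these 4 alternative values was called. Prdx6, which reduces lipid peroxides, fell by 0.86 in MCD (adjusted p = 4.47e-05), and was -0.19 with quantile normalization, not called. At 10 weeks it fell by 0.28 (adjusted p = 0.0369), with 0.01 under total-read scaling and -0.0005 under quantile normalization, neither called. The 10-week Prdx6 call was lost without any of 6 libraries, for example STAM replicate 5 (-0.21). At 4 weeks the 3 genes differed by 0.01 to 0.09, none called.

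G6pdx and Pgd encode the 2 NADPH-making dehydrogenases of the pentose phosphate pathway. G6pdx rose by 0.69 in MCD (adjusted p = 0.0387), from 4.42 to 10.5 CPM in CD to 9.55 to 13.4 CPM in MCD, with overlap. That call was lost without any of 5 libraries, for example CD replicate 4 (0.45), and with quantile normalization (0.57). In STAM livers G6pdx differed by -0.17 at 4 weeks and 0.26 at 10 weeks, neither called, and it passed at 10 weeks with total-read scaling (0.55) and without control replicate 3 (0.38). Pgd rose by 0.86 at 10 weeks (SE 0.15, adjusted p = 0.000491), where all 5 STAM livers were above all 5 controls. It differed by 0.68 in MCD (adjusted p = 0.0688), passing without CD replicate 1 (0.89, adjusted p = 0.0102), with total-read scaling (1.11) and with quantile normalization (0.86), and by 0.55 at 4 weeks (adjusted p = 0.225).

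The peroxide and superoxide enzymes parted by gene. Gpx2, Gpx3 and Gpx4 rose in all 3 comparisons, whereas Gpx1, Cat, Sod1 and Sod2 fell in MCD and at 10 weeks with the deposited scaling. The 4-week rise of Gpx3 lost its call when single libraries were left out, and the assignment of Gpx4 reads is uncertain, as given below. Of the falls, Gpx1 changes sign with quantile normalization in both comparisons and Cat at 10 weeks. At 4 weeks none of the last 4 passed with limma, and Sod1 was lower at an unadjusted p under 0.05.

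Gpx2 (NM_030677, chromosome 12, 76792335 to 76795554) is the glutathione peroxidase of gut epithelium. CD livers had 1, 2, 7 and 5 reads, 4-week controls 1, 1, 1, 2 and 3 reads and 10-week controls 2, 2, 3, 2 and 0 reads. MCD livers had 1.27, 3.07, 1.61 and 5.26 CPM, 4-week STAM livers 1.51, 3.21, 1.52, 2.03 and 1.93 CPM and 10-week STAM livers 1.80, 0.603, 0.533, 4.81 and 0.481 CPM. No diseased liver fell within the range of its controls, and at 10 weeks replicates 1 and 4 stood above the other 3. The ratio of summed reads per effective library was 14.3 (8.54 to 25.9) in MCD, 22.1 (11.01 to 51.9) at 4 weeks and 17.4 (8.96 to 38.7) at 10 weeks, with counting intervals. Fitted changes were 3.76 (SE 0.63, adjusted p = 0.000505), 4.35 (SE 0.37, adjusted p = 1.87e-05) and 3.75 (SE 0.80, adjusted p = 0.00206). A pseudogene, Gpx2-ps1, shares 18.9% of its 50-base stretches.

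Gpx3 (NM_008161, chromosome 11, 54902854 to 54910382), the secreted plasma peroxidase made mainly in kidney, had 4.13, 5.18, 5.03 and 4.55 CPM in CD and 11.8, 19.2, 11.98 and 17.1 CPM in MCD. The groups were far apart, and it rose by 1.64 (SE 0.18, adjusted p = 1.54e-05). At 4 weeks controls had 4.01, 3.65, 8.39, 2.15 and 3.10 CPM and STAM livers 7.81, 10.96, 6.62, 7.96 and 9.95 CPM. Control replicate 3 lay within the STAM range. The rise of 1.16 (SE 0.30, adjusted p = 0.0337) disappeared on leaving out any of 8 of the 10 libraries, such as control replicate 4 (0.95). At 10 weeks controls had 6.02, 5.01, 5.61, 4.09 and 4.02 CPM and STAM livers 10.2, 17.2, 10.96, 23.2 and 46.4 CPM. All STAM livers were above the controls, replicate 5 the most, and Gpx3 rose by 1.91 (SE 0.38, adjusted p = 0.00234).

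Gpx4, which reduces lipid hydroperoxides in membranes and protects cells from ferroptosis, rose by 0.74 in MCD (SE 0.13, adjusted p = 0.000602). Controls at 4 weeks had 115, 122, 111, 120.5 and 125 CPM and STAM livers 144, 160.5, 139, 166 and 152 CPM, without overlap, and it rose by 0.36 (SE 0.07, adjusted p = 0.00571). At 10 weeks the rise was 0.40 (SE 0.06, adjusted p = 0.000221). Its values are uncertain, because the pseudogene Gpx4-ps2 shares 68.9% of its 50-base stretches and how such reads were assigned is not known here. Gpx1, the main cytosolic peroxidase of liver, fell by 0.56 in MCD (adjusted p = 0.00555) and by 0.30 at 10 weeks (adjusted p = 0.0293), and was 0.12 and 0.05 with quantile normalization and -0.14 and -0.0057 with total-read scaling, none of these called. Its call at 10 weeks was lost without any of 4 libraries, for example STAM replicate 4 (-0.24). At 4 weeks it differed by 0.21 (adjusted p = 0.344) and passed without control replicate 1 (0.33).

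Cat (NM_009804, chromosome 2, 103453904 to 103485153), catalase, splits hydrogen peroxide in peroxisomes. CD livers had 3392, 3605, 3899 and 3476 CPM and MCD livers 1224, 1247, 1441 and 1109.7 CPM. The highest MCD liver was under the lowest CD liver by more than 2-fold, and Cat fell by 1.52 (SE 0.11, adjusted p = 8.1e-07). At 10 weeks it fell by 0.32 (SE 0.11, adjusted p = 0.0246), was 0.15 with quantile normalization and -0.03 with total-read scaling, neither called, and lost the call without any of 5 libraries, for example control replicate 4 (-0.29). The difference at 4 weeks was -0.13 (adjusted p = 0.325). Sod1 and Sod2, the superoxide dismutases of cytosol and mitochondria, fell by 0.91 and 0.44 in MCD (adjusted p = 1.84e-05 and 0.00178) and by 0.58 and 0.44 at 10 weeks (adjusted p = 0.000167 and 0.000508). The call of Sod2 was lost in MCD with total-read scaling (-0.01) and quantile normalization (-0.16), and at 10 weeks with total-read scaling (-0.14). A transcript named Gm8566 shares 23.1% of the stretches of Sod1.

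Of the 15 glutathione S-transferases, 2 rose and 6 fell in MCD, limma called none at 4 weeks, and 1 rose and 6 fell at 10 weeks. Of all genes, 22.6% rose and 20.1% fell in MCD, 9.8% were called at 4 weeks, and 25.3% and 22.5% rose and fell at 10 weeks. The shares of transferases that rose were thus below those of all genes. Gstp1, 1 of the 6 falls in MCD, lost its call under both other scalings. At 4 weeks 3 transferases were higher and 2 lower at an unadjusted p of limma under 0.05. The authors' deposited table holds an adjusted p under 0.05 for 3 of them at that age, Gsta1 (log2 fold change 1.88, adjusted p = 0.000397), Gstm3 (1.18, 0.00338) and Gstt3 (-0.56, 0.0209). The median change was -0.24 in MCD, 0.04 at 4 weeks and -0.36 at 10 weeks. Gsta3, Gstm6, Gstt1 and Gstt3 fell in both MCD and 10-week STAM livers and Gstm3 rose in both, under each of the 3 scalings.

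Per length, the microsomal transferase Mgst1 was the highest of all 40 members in every group. Its level was 6095 ± 564 CPM per kb in CD and 1876 ± 284 in MCD (SD, n = 4 each). At 10 weeks the order in controls was Mgst1 (3949 ± 269), Gpx1 (1599 ± 105), Gstp1 (1587 ± 482), Gsta3 (1454 ± 138) and Cat (1367 ± 143), where neighbours among the last 4 differ by less than their SDs (n = 5). In 10-week STAM livers Gsta3 was at 573 ± 59.8 CPM per kb, under Gpx1, Gstp1, Cat and Gstm1. At 4 weeks Gstm1 came next to Mgst1 in controls, at 1744 ± 356 against 2354 ± 221.

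The summed level of the 15 transferases was 10421, 10429, 14643 and 12369.8 CPM in CD and 6284, 5996, 6366 and 5557 CPM in MCD. All MCD livers were lower than all CD livers, with CD replicate 3 the highest. At 4 weeks the sums were 6871, 7457, 6139, 9570.3 and 8185 CPM in controls and 9233, 8879.9, 8297, 8439 and 7674 CPM in STAM, and the groups overlapped. At 10 weeks they were 8499, 8105, 8625, 9525 and 8498 CPM in controls and 6905, 5805, 6648, 6267 and 5603 CPM in STAM. There each STAM liver was below each control. As a share of reads the medians were 0.983% in CD and 0.697% in MCD, and 0.771% in 10-week controls and 0.700% in STAM. The groups again did not overlap, but the relative gaps were smaller than those of the CPM medians. These were 11399 and 6140 CPM in the diet model and 8499 and 6267 CPM at 10 weeks. Mgst1, Gsta3, Gstm1 and Gstp1 made up most of each sum, and CD replicate 3 was the highest CD library in 9 of the 15 genes.

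**Figure D3:**
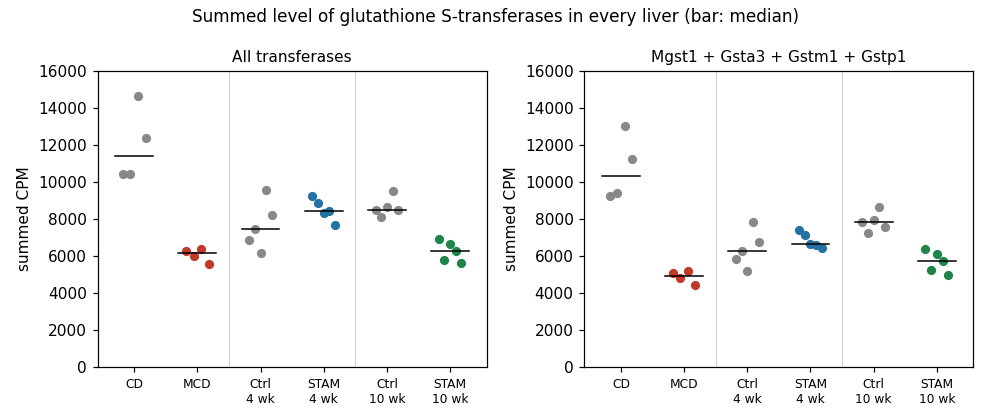
Summed CPM of all 15 transferases (left) and of Mgst1, Gsta3, Gstm1 and Gstp1 (right) in each library of the 6 groups, with a bar at the group median. MCD livers lie between 5557 and 6366 CPM, below the CD range of 10421 to 14643, and 10-week STAM livers between 5603 and 6905, below the controls at 8105 to 9525. These sums are of all 15 transferases and use the deposited scaling, and the relative gaps are smaller as shares of reads.

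Mgst1 (NM_019946, chromosome 6, 138140537 to 138156752) had 5177, 5440.2, 6041 and 6333 CPM in CD and 1859.5, 1738, 2060.2 and 1420.1 CPM in MCD. The ranges are more than 2-fold apart. It fell by 1.71 (SE 0.13, adjusted p = 1.18e-06), and differed by 0.28 at 4 weeks (adjusted p = 0.0767) and by -0.22 at 10 weeks (adjusted p = 0.112), where the sign turned under both other scalings (0.07 and 0.16, not called). At 4 weeks it passed on the higher side with total-read scaling (0.35), with quantile normalization (0.37), and without control replicate 4 (0.33) or STAM replicate 2 (0.33). Mgst3, a microsomal relative that acts on leukotrienes and lipid peroxides, had 11.03, 10.7, 10.8 and 5.15 CPM in CD and 21.4, 22.4, 27.99 and 21.8 CPM in MCD. CD replicate 4 was the lowest, the groups did not overlap, and Mgst3 rose by 1.37 (SE 0.22, adjusted p = 0.000451). At 10 weeks Mgst3 differed by -0.36 (adjusted p = 0.0858), and fell with quantile normalization (-0.46) and without control replicate 1 (-0.48) or STAM replicate 5 (-0.47).

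In the alpha class, Gsta3 (NM_010356, chromosome 1, 21240585 to 21265575), the main alpha transferase of mouse liver and the one that detoxifies aflatoxin epoxide, had 1762, 1976, 1950.3, 2289.8 and 2015 CPM in 10-week controls and 863, 647, 817, 811 and 799 CPM in STAM. The lowest control was more than 2-fold above the highest STAM liver, and Gsta3 fell by 1.35 (SE 0.10, adjusted p = 9.75e-07). In MCD it fell by 1.09 (SE 0.16, adjusted p = 0.000141), from 1969 to 2349 CPM in CD to 703 to 1182 CPM. Gsta2 (NM_008182, chromosome 9, 78331020 to 78347145) had 24.3, 78.6, 49.1, 76.7 and 94.9 CPM in 10-week controls and 24.8, 23.9, 19.6, 14.2 and 28.1 CPM in STAM. Control replicate 1 lay in the STAM range, the other 4 controls above it, and it fell by 1.44 (SE 0.37, adjusted p = 0.0114). Gsta4, which conjugates the lipid peroxidation product hydroxynonenal, fell by 1.07 at 10 weeks (SE 0.23, adjusted p = 0.00381).

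Gsta1 was called by limma in none of the 3 comparisons with the deposited scaling. CD livers had 24.8, 13.3, 169 and 18.6 CPM and MCD livers 82.3, 131, 75.4 and 75.1 CPM, so that CD replicate 3 was above every MCD liver and the other 3 CD livers below. The difference was 1.47 (SE 0.79, adjusted p = 0.180), and without CD replicate 3 it rose by 2.27 (adjusted p = 7.16e-05). At 4 weeks controls had 13.9, 15.5, 3.91, 49.4 and 30.7 CPM and STAM livers 119, 111, 59.3, 72.8 and 55.5 CPM, without overlap, and the difference was 2.25 (SE 0.63, adjusted p = 0.0602). It passed without control replicate 3 (1.73) or control replicate 4 (2.65). At 10 weeks Gsta1 differed by 0.70 (SE 0.30, adjusted p = 0.0810), and passed with total-read scaling (0.99), without control replicate 5 (0.85) and with the replicate number as a block (adjusted p = 0.0252). The authors' deposited table gives 0.63 for it at 10 weeks (adjusted p = 0.0241). Gsta1 shares 89.7% of its 50-base stretches with other transcripts, most with Gm3776 (82.9%), and Gsta2 shares 64.2%, so the split of reads between them is uncertain. Summed over Gsta1, Gsta2 and Gm3776, the ranges were 72.02 to 329.6 CPM in CD and 148 to 231 in MCD, 14.1 to 122 and 118 to 247 at 4 weeks, and 31.98 to 117 and 37.05 to 64.6 at 10 weeks, and overlapped in each pair.

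The mu-class genes lie in a cluster on chromosome 3 and did not move together. Gstm3 rose by 1.28 in MCD (SE 0.25, adjusted p = 0.00261) and by 1.17 at 10 weeks (SE 0.26, adjusted p = 0.00479), with no overlap of groups in either. At 4 weeks it differed by 1.38 (SE 0.41, adjusted p = 0.0711), with controls from 121 to 576 CPM and STAM livers from 448 to 831, and passed without control replicate 4 (1.68, adjusted p = 0.0169). Its neighbour Gstm6 fell by 1.33 in MCD (SE 0.10, adjusted p = 5.89e-07) and by 0.91 at 10 weeks (SE 0.08, adjusted p = 3.2e-06), again without overlap. At 4 weeks Gstm6 differed by -0.26 (adjusted p = 0.329). Control replicate 1 was at 55.6 CPM there against 94.9 to 107 in the others, and without it Gstm6 fell by 0.43. Gstm1, the mu gene of highest level, differed by -0.24, 0.04 and -0.14, none called, though it fell at 10 weeks with the deposited scaling without control replicate 1 (-0.27). Its sign in MCD and at 10 weeks turned under both other scalings (0.18 and 0.48 in MCD, 0.15 and 0.16 at 10 weeks, none called). Gstm2 and Gstm4, called in no comparison with the deposited scaling, passed on the higher side under others. These were Gstm2 in MCD (0.37 with total-read scaling and 0.37 with quantile normalization) and at 10 weeks (0.30 with total-read scaling), and Gstm4 at 10 weeks (0.44 and 0.29). In MCD Gstm4 fell without CD replicate 2 (-0.39). Other transcripts share 28.8% of the stretches of Gstm3, 23.1% of Gstm1 and 11.8% of Gstm6.

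In the theta class, on chromosome 10, Gstt3 (NM_133994, chromosome 10, 75774122 to 75781414) had 76.5, 117, 81.8, 114 and 124 CPM in 10-week controls and 27.7, 33.6, 38.5, 26.4 and 48.6 CPM in STAM. All STAM livers were below all controls, and Gstt3 fell by 1.56 (SE 0.19, adjusted p = 9.87e-05). It fell by 0.88 in MCD (SE 0.16, adjusted p = 0.000759), and at 4 weeks differed by -0.57 (adjusted p = 0.0782), passing without control replicate 3 (-0.68). Gstt1 beside it fell by 1.17 in MCD (adjusted p = 6.28e-05) and by 0.87 at 10 weeks (adjusted p = 2.75e-05). Gstt2, between 16.9 and 98.7 CPM over all libraries, was not called with the deposited scaling. It passed on the higher side at 10 weeks with total-read scaling (0.53), with quantile normalization (0.39) and without STAM replicate 4 (0.35). A transcript named Gm20441 shares 26.00% of the stretches of Gstt3. Gstp1, the pi transferase, fell by 0.71 in MCD (SE 0.22, adjusted p = 0.0233). That call was lost without any of 4 libraries, for example CD replicate 4 (-0.61), with total-read scaling (-0.28) and with quantile normalization (-0.01). At 10 weeks Gstp1 passed without control replicate 2 (-0.71). Gstp2 shares 62.3% of its stretches.

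**Figure D4:**
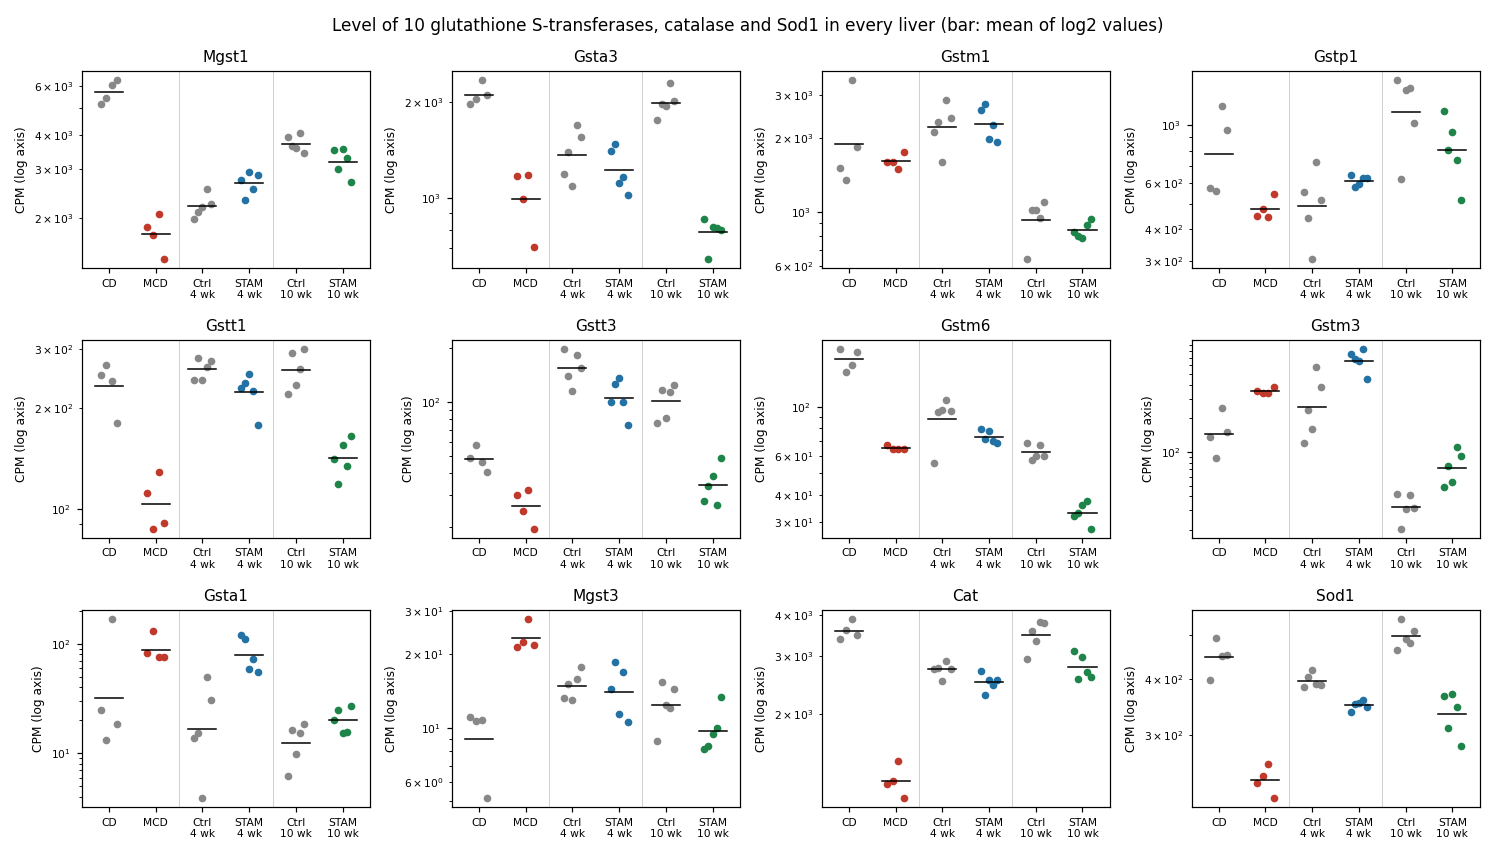
Level of 10 transferases, catalase (Cat) and Sod1 in each library (y axis, CPM on a log axis, 1 point per library, bar at the mean of log2 values) in the 6 groups. Gsta3, Gstt1, Gstt3 and Gstm6 lie lower in MCD and 10-week STAM livers than in their controls, Gstm3 and Mgst3 lie higher in MCD, and CD replicate 3 is the top CD point for Gstm1, Gstp1, Gstm3 and Gsta1. The fall of Cat in 10-week STAM livers flips in sign with quantile normalization.

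Between the 2 ages the STAM effect differed for 15 of 40 members, all lower at 10 weeks than at 4 weeks, where 11.2% of 15022 genes had a lower and 8.89% a higher effect. None was higher by limma's adjusted p, and 1 was at an unadjusted p under 0.05. The largest differences were those of transferases, with Gsta2 at -2.39 (SE 0.66, adjusted p = 0.0176), Gsta3 at -1.19 (SE 0.17, adjusted p = 0.000127) and Gstt3 at -0.997 (SE 0.28, adjusted p = 0.0178). Gsta3 differed by -0.16 from controls at 4 weeks and by -1.35 at 10 weeks. Txnrd1 changed from 0.27 to -0.30, a difference of -0.57 (SE 0.12, adjusted p = 0.00283), and Gss from 0.45 to 0.04, a difference of -0.41 (SE 0.11, adjusted p = 0.0105). With total-read scaling 3 of the 15 remained (Gsta2, Gsta3 and Gstt1), and these remained with quantile normalization too. Total-read scaling also added Gstt2, with a higher effect at 10 weeks. Those of Gsr, Prdx6 and Gpx1 were lost when single libraries were left out, for example 4-week STAM replicate 4 for Gsr (-0.31), 10-week control replicate 4 for Prdx6 (-0.32) and 4-week control replicate 2 for Gpx1 (-0.44). Ages also differ in their control levels, for example for Gstm3 (121 to 576 CPM at 4 weeks and 20.6 to 41.7 at 10 weeks), in tables that were scaled separately.

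Between the 2 models, the MCD effect exceeded the 10-week STAM effect for 6 members and was below it for 5, where 12.9% and 15.0% of 14986 genes did so. Those above were Srxn1 at 1.76 (SE 0.28, adjusted p = 0.000181), Mgst3 at 1.73 (SE 0.29, adjusted p = 0.000223), Cbr1 at 1.30, Gss at 1.15, Hmox1 at 1.005 and Txnrd1 at 0.59. Those below were Mgst1 at -1.49 (SE 0.17, adjusted p = 2.02e-06), Cat at -1.20 (SE 0.15, adjusted p = 7.17e-06), Prdx6 at -0.58, Gstm4 at -0.44 and Gstm6 at -0.42. In MCD and at 10 weeks the changes were -1.71 and -0.22 for Mgst1 and -1.52 and -0.32 for Cat, of which the 10-week values turned in sign with quantile normalization. The 6 above and, of those below, Mgst1 and Cat were called under all 3 scalings. The difference of Hmox1 disappeared on leaving out any of 7 libraries, such as MCD replicate 4 (0.76, adjusted p = 0.0576), and that of Gstm4 without CD replicate 3 (-0.32) or 10-week control replicate 2 (-0.40). Slc7a11 did not pass, with 1.74 (SE 1.27, adjusted p = 0.341) and an interval of -0.94 to 4.43.

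Other genes of the same pathways were read from 4 further lists. To set beside each list, 22.6% of all genes rose and 20.1% fell in MCD. At 4 weeks these shares were 6.52% and 3.27%, and at 10 weeks 25.3% and 22.5%. Of 25 other NRF2 pathway and target genes, 7 rose and 5 fell in MCD, 1 rose at 4 weeks, and 3 rose and 7 fell at 10 weeks. These counts lay near the shares of all genes, except for the rises at 10 weeks, which were fewer. Abcc4, an exporter of organic anions and a known NRF2 target, had 4.02, 4.40, 6.36 and 4.62 CPM in CD and 57.8, 99.5, 51.7 and 80.6 CPM in MCD, and rose by 3.87 (SE 0.21, adjusted p = 1.06e-07). At 4 weeks it had 9.43, 6.51, 6.95, 8.67 and 9.28 CPM in controls and 22.6, 33.8, 14.5, 19.9 and 16.6 CPM in STAM, and was the 1 gene of the list to rise (1.35, SE 0.21, adjusted p = 0.00184). In both comparisons the groups were apart. At 10 weeks Abcc4 was not called, and its STAM effect was called lower than that at 4 weeks. MCD livers also had higher Maff (1.84), a small MAF partner of NRF2, and Htatip2 (1.68). At 10 weeks the largest changes of the list were Ces1g (-1.37), a carboxylesterase, Mafk (0.94), also a small MAF, and Osgin1 (-0.82).

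Of 20 genes of glutathione breakdown, transport and thiol chemistry, 8 rose and 4 fell in MCD, 1 rose and 2 fell at 4 weeks, and 6 rose and 5 fell at 10 weeks. Ggt1, the gamma-glutamyl transferase that starts glutathione breakdown outside the cell, rose by 3.09 in MCD (SE 0.77, adjusted p = 0.00633), from 0 to 2 reads per CD library to 4 to 26 reads, so that the size depends on the prior count. At 10 weeks it rose by 2.77 (SE 0.92, adjusted p = 0.0233). Glo1, glyoxalase, fell by 2.005 in MCD and Ggt7 rose by 2.001. At 10 weeks Chac1, which cleaves glutathione in the cytosol, rose by 1.83 and the dipeptidase Dpep1 by 1.33. At 4 weeks Dpep1 rose by 1.16, while Chac2 fell by 0.35 and Glrx2 by 0.31.

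Of 13 other thioredoxin and peroxiredoxin genes, 3 rose and 6 fell in MCD, led by Msrb1 (-1.24), Sesn3 (-1.03) and Sesn2 (0.96). At 4 weeks 2 fell, Txnrd3 (-0.47) and Txnrd2 (-0.43). At 10 weeks 4 rose and 3 fell, led by Txnip (1.93), the thioredoxin-binding protein that glucose induces, Sod3 (1.13) and Sesn2 (0.79). Of the other transferases in the tables, 2 rose and 4 fell of 11 tested in MCD, 2 fell of 12 at 4 weeks, and 2 rose and 3 fell at 10 weeks. The largest were Mgst2 (2.55), Gstk1 (-0.91) and Gstm7 (-0.79) in MCD, Gstm7 (-0.58) and Gstz1 (-0.31) at 4 weeks, and Gm3776 (1.60), Ltc4s (-1.31) and Gstz1 (-0.53) at 10 weeks. Results of these 4 lists under the other scalings are not reported here.

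Markers of cell types also changed. To set beside each marker list, 22.6% of all genes rose and 20.1% fell in MCD. At 4 weeks these shares were 6.52% and 3.27%, and at 10 weeks 25.3% and 22.5%. With the deposited scaling 4 of 5 hepatocyte markers fell in MCD, 1 at 4 weeks and 5 at 10 weeks. Their summed level at 10 weeks was 69844 to 94476 CPM in controls and 38158 to 53859.8 in STAM. In MCD it was 62458 to 82938 against 69522 to 91923 in CD, with overlap. As a share of reads the sum was 7.67% to 9.49% in MCD and 5.79% to 7.79% in CD, with overlap. The median was higher in MCD (9.12% against 7.11%). At 10 weeks the shares overlapped too, at 4.36% to 6.22% in STAM and 6.13% to 8.40% in controls. At 4 weeks the STAM shares stayed below those of controls, with medians of 10.56% and 12.75%. Marker calls under the other scalings are not reported here. Of 10 macrophage and Kupffer cell markers 6 rose in MCD, 8 at 4 weeks and 7 at 10 weeks. Their sums were 364 to 581 CPM in CD and 652 to 1339.8 in MCD, 399.8 to 541 and 582 to 809.9 at 4 weeks, and 386 to 562 and 558 to 743 at 10 weeks. Gpnmb, a marker of lipid-laden macrophages, rose by 7.40, 4.28 and 5.92 in the 3 comparisons. Of 7 cholangiocyte markers 6, 4 and 5 rose, with sums of 76.8 to 99.4 CPM in CD and 123 to 209 in MCD, 49.99 to 89.5 and 116 to 158 at 4 weeks, and 27.9 to 46.03 and 75.00 to 358 at 10 weeks. With the deposited scaling the hepatocyte and transferase sums were both lower in 10-week STAM livers. At 4 weeks the hepatocyte sum was lower while the transferase sums overlapped. In MCD the transferase sum was lower while the hepatocyte sums overlapped. Most of the hepatocyte sum was albumin, at 4.19% to 6.23% of reads in CD and 6.58% to 8.36% in MCD. Albumin was not called in MCD, whereas the other hepatocyte markers Apoa1, Ttr, Hnf4a and Cps1 fell. Some macrophage and bile duct genes rose in the same comparisons as Slc7a11, Cbr3 and Gpx2. The part of cell types in these results was not tested. In bulk liver, fewer cells of a type and less RNA per cell cannot be told apart.

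Of 5 stellate cell markers 4 rose in MCD, 1 fell at 4 weeks, and 3 rose and 1 fell at 10 weeks, with sums of 142 to 153 CPM in CD, 194 to 248 in MCD, 187 to 280.4 and 169.7 to 217 at 4 weeks and 135 to 198 and 143 to 207 at 10 weeks. Of 5 sinusoidal endothelial markers 1 fell in MCD, 2 fell at 4 weeks, and 2 rose and 1 fell at 10 weeks. Their sums ranged over 216 to 227 CPM in CD, 183 to 239 in MCD, 246 to 292 and 195 to 245 at 4 weeks and 197 to 283 and 257 to 312 at 10 weeks. Of 4 neutrophil markers, S100a8 (1.52) and S100a9 (1.86) rose in MCD, and the sums reached at most 10.9 CPM in any library. A single neutrophil marker was at 0 reads in all 10-week controls, and no marker of another list was at 0 in a whole group.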

How the data were processed

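The 40 members and the other gene lists were chosen with earlier results of these data known. Poly(A) RNA of liver was sequenced with a stranded kit, per the labels' protocols, and aligned with STAR 2.4.2a to mm10, per the submitters' processing notes. For the counter, the annotation and the handling of shared reads, no source used here gives a name. Sample columns were deposited as log2 CPM, scaled by the authors within each table with a prior of 0.25 reads. This unit was read from the values, of which 100% gave whole reads within 0.05. The deposited tables also hold the authors' log2 fold changes and p-values, printed only where that table is named, and a gene length in bases, used for CPM per kb.

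Groups came from the sample titles. The 3 comparisons were fitted separately, two-sided, by limma 3.58.1 with trend and robust variance (statmod 1.5.0, under R 4.3.3). Genes whose mean log2 CPM was at or below the 25th percentile were not tested. Differences of effects came from 1 fit over 4 groups. Alternatives were total-read scaling, quantile normalization, other filters, a prior of 2 reads, no trend, a replicate block and leaving out each library. The code was tested on simulated data. Between replicates, chi-square over degrees of freedom was at least 11.4, so no pair matched within sampling noise. No molecular identifiers are named, and counting intervals cover counting error only. Deposited starts plus 1 matched RefSeq for 10880 of 19397 genes, and positions are given so. Shared stretches are 50-base words of GENCODE vM21 transcripts. Named genes were all members, with every value for Nfe2l2, Keap1, Nqo1, Gclc, Gclm, Slc7a11, Txnrd1, Srxn1, Hmox1 and the 8 largest called changes per comparison, and the 3 largest of each other list. Of the listed genes, Tf, Gsta13 and Gstp3 are not used here.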

Additional observations from a re-analysis of the deposited data

Results flagged for a closer look

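In 14 of 240 gene and group sets, 1 library stood apart from the rest of its group by Dixon's test at the 95% level, where chance alone gives about 1 in 20, or 12. High values were Gsta2 in CD replicate 3 at 119.5 CPM (others 55.6 to 61.7), Keap1 in MCD replicate 4 at 51.9 CPM (others 37.7 to 38.8) and Gsta1 in MCD replicate 2 at 131 CPM (others 75.1 to 82.3). Further high values were Mgst3 in MCD replicate 3 at 27.99 CPM (others 21.4 to 22.4), Keap1 in 4-week control replicate 3 at 66.7 CPM (others 55.4 to 58.2) and Gss in 4-week STAM replicate 4 at 125 CPM (others 106 to 111). Low values were Mgst3 in CD replicate 4 at 5.15 CPM (others 10.7 to 11.03), Pgd in 4-week control replicate 1 at 25.5 CPM (others 60.6 to 69.1) and Gstm2 in 4-week control replicate 1 at 32.9 CPM (others 102 to 155). Further low values were Gstm6 in 4-week control replicate 1 at 55.6 CPM (others 94.9 to 107), Srxn1 in 10-week control replicate 3 at 54.8 CPM (others 57.5 to 58.7) and Gpx2 in 10-week control replicate 5 at 0.0119 CPM, which is 0 reads at the deposited prior (others 0.106 to 0.156). Further low values were Gstm1 in 10-week control replicate 1 at 642 CPM (others 940.0 to 1097) and Gsta3 in 10-week STAM replicate 2 at 647 CPM (others 799 to 863). Of the 8 low values, 3 belong to 4-week control replicate 1.

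The STAM effect at 10 weeks was lower than that at 4 weeks for 15 members, by limma's test of the difference on the log2 scale: Gss (-0.41), Gsr (-0.36), Txnrd1 (-0.57), Txn1 (-0.35), Prdx1 (-0.41), Prdx6 (-0.37), Gpx1 (-0.50) and Sod1 (-0.40). The other 7 were Sod2 (-0.47), Gsta2 (-2.39), Gsta3 (-1.19), Gstm6 (-0.65), Gstt1 (-0.64), Gstt3 (-0.997) and Mgst1 (-0.49). Of the 15, only Gsta2, Gsta3 and Gstt1 were called under all 3 scalings, and total-read scaling added Gstt2 on the higher side.

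The MCD effect differed from the 10-week STAM effect for 11 members by the same test. It was higher for Gss (1.15), Txnrd1 (0.59), Srxn1 (1.76), Hmox1 (1.005), Cbr1 (1.30) and Mgst3 (1.73) and lower for Prdx6 (-0.58), Cat (-1.20), Gstm4 (-0.44), Gstm6 (-0.42) and Mgst1 (-1.49).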

How the results depend on the processing

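Over 2631 recomputed changes of single members, 90.3% kept their direction and their side of the threshold, 138 lost their call, 56 gained one and 61 changed sign, 27 by scaling and 34 on leaving out 1 library. Of the 61, 10 were changes of called members, all by scaling. The changed values with total-read scaling were in MCD 0.081 for Gclm, 0.12 for Txn1, 0.19 for Gsta2, 0.22 for Gsta4, 0.18 for Gstm1, 0.37 for Gstm2 and 0.13 for Gstm4, and at 4 weeks 0.024 for Keap1, 0.026 for Gclm and 0.012 for Gsta4, and at 10 weeks 0.14 for Keap1, 0.062 for Gsr, 0.28 for Cbr1, 0.01 for Prdx6, 0.15 for Gstm1 and 0.074 for Mgst1. With quantile normalization they were in MCD 0.28 for Gclc, 0.23 for Prdx1, 0.12 for Gpx1, 0.48 for Gstm1 and 0.37 for Gstm2, and at 10 weeks 0.18 for Cbr1, 0.051 for Gpx1, 0.15 for Cat, 0.16 for Gstm1 and 0.16 for Mgst1, and at 4 weeks 0.007 for Gclm. Leaving out 1 library, these uncalled changes spanned 0: in MCD Keap1 (-0.052 to 0.11), Gsr (-0.048 to 0.11), Gsta2 (-0.35 to 0.018), Gstm1 (-0.40 to 0.049) and Gstm2 (-0.19 to 0.048), and at 4 weeks Gclc (-0.11 to 0.14), Gclm (-0.13 to 0.011), Txn1 (-0.021 to 0.063), Sod2 (-0.0021 to 0.071), Gsta4 (-0.28 to 0.12), Gstm1 (-0.082 to 0.13), Gstm4 (-0.056 to 0.20) and Mgst3 (-0.18 to 0.023), and at 10 weeks Gss (-0.011 to 0.082), Cbr1 (-0.13 to 0.052) and Gstm2 (-0.075 to 0.096). Members lower in MCD numbered 8 with total-read scaling and 7 with quantile normalization against 15, and at 10 weeks 7 and 9 against 17. Members higher at 10 weeks numbered 17 with total-read scaling against 9. Members whose STAM effect differed between ages numbered 4 and 7 under these scalings against 15, and the shares of all genes that did so are not given here. Total-read scaling moves the median of all genes, and the cause of the other shifts was not tested. A count model on the recovered reads had been planned and is not reported, since the deposited unit is log2 CPM. Leaving out 1 library, genes called at 4 weeks ranged from 982 (without STAM replicate 1) to 1821 (without control replicate 1) against 1500, and members lower from 0 to 1, with Gstm6 called without control replicate 1 and Gstt3 without control replicate 3. Depth limits Slc7a11 and Gpx2 in controls.

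The replicate numbers are not known to pair samples. Same-numbered libraries deviated from their group means with correlations of -0.122 to 0.00824 across genes, and no library correlated best with its own number. With the replicate number as a block, all genes called were 5507 in MCD, 848 at 4 weeks and 6566 at 10 weeks, against 6541, 1500 and 7319. Members called went from 13 higher and 15 lower to 13 and 14 in MCD, from 7 to 6 higher at 4 weeks, and from 9 higher and 17 lower to 10 and 14 at 10 weeks.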
